A study of Mus musculus with 60 samples.

Results

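The 9 genes described here encode enzymes of the citric acid cycle, and were taken as every probe set whose only listed symbol is Cs, Idh2, Idh3a, Idh3b, Ogdh, Sucla2, Suclg1, Fh1 or Mdh2. They held 21 of the 45101 probe sets of the array and 9 of its 18193 genes with a symbol of their own. Transcript levels were measured on 60 Affymetrix Mouse Genome 430 2.0 arrays, from heart, gastrocnemius (a hindlimb muscle) and neocortex of male B6C3F1 hybrid mice, with 5 mice in each of 4 groups per tissue. The old CR group was on a calorie restricted diet (40% in the labels, although the weekly energy allowances in the methods correspond to a smaller reduction), and the old resveratrol group was on the control diet with resveratrol at 4.9 mg per kg body weight. They were set against old control, on the AIN-93M control diet, and young control, on that same diet. Old mice of all 3 diets were 30 months old, and young controls were 5 months old. The CR and resveratrol diets began at 14 months of age, when per the methods the old controls stayed on the control diet they already received. All mice were individually housed, and per the methods the control ration itself lay a little under free-feeding intake, so the control groups are not freely fed animals. Each array held the RNA of 1 mouse, and p-values measure the spread between these mice. On build GRCm38.p6 the protein-coding genes lie at chr10:128337727-128362482 (Cs), chr7:80094845-80118608 (Idh2), chr9:54586511-54604662 (Idh3a), chr2:130279309-130284451 (Idh3b), chr11:6291597-6359094 (Ogdh), chr14:73552786-73596144 (Sucla2), chr6:73248505-73276907 (Suclg1), chr1:175601378-175625635 (Fh1) and chr5:135778649-135790386 (Mdh2).

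The citric acid cycle oxidises acetyl groups in the mitochondrial matrix and passes their electrons to the respiratory chain as NADH and FADH2. Citrate synthase (Cs) joins acetyl-CoA to oxaloacetate, isocitrate is oxidised by the NAD-dependent enzyme (subunits Idh3a, Idh3b and Idh3g) or by the separate NADP-dependent enzyme Idh2, and the 2-oxoglutarate dehydrogenase complex, of which Ogdh is the first subunit, makes succinyl-CoA. Succinyl-CoA ligase (Suclg1 with Sucla2 or Suclg2) releases succinate and a nucleoside triphosphate, and fumarate hydratase (Fh1) and malate dehydrogenase (Mdh2) complete the return to oxaloacetate. Heart muscle, rich in mitochondria, makes nearly all of its ATP by oxidative metabolism, and neurons likewise rely on it heavily.

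Values are log2 signals after every array was scaled to the same trimmed mean of 500, and a gene with several probe sets is represented by the brightest. Signals of different probe sets are not comparable as amounts of mRNA, so levels are compared only within a gene. In whole tissue, fewer cells of a type and less RNA per cell cannot be told apart. A gene is said to have risen or fallen only where its adjusted p was under 0.05 (limma, all 4 groups of a tissue in 1 fit, Benjamini-Hochberg over 12831 to 13285 genes), and all 9 members passed the filter on low signals in each tissue. Changes are given as log2 differences ± SE, and n is 5 mice in every group.

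The tissue labels matched their defining markers. The summed signal of 6 cardiomyocyte markers was 287305 to 494223 in heart against 2146 to 3036 in neocortex, that of 6 fast fibre markers was 225160 to 450731 in gastrocnemius against 286.2 to 650.7 in heart, and that of 6 neuron markers was 61121 to 83817 in neocortex against 930.3 to 2435 in heart. Some RNA and array measures moved with the groups. In heart, the actin control signal at the 3' end minus that at the 5' end (log2) was 1.26 to 1.66 in old controls, above its range of 0.61 to 0.95 over the other 3 groups. In gastrocnemius, the mean log2 signal of 12 poly-A control probe sets was 8.93 to 10.28 in CR and resveratrol against 5.85 to 8.06 in the control groups, and the actin difference reached 1.40 in old control replicate 1 and 1.11 in young control replicate 4. In neocortex, the actin difference was 0.66 to 0.77 in CR and 0.76 to 1.01 in resveratrol against 0.45 to 0.60 in old controls. The same difference for the Gapdh control was -0.22 to 3.23 in gastrocnemius old controls, above -0.30 to -0.23 over CR and resveratrol. In heart it was -0.08 to 0.25 in old controls, above -0.28 to -0.14 over the other 3 groups. Without the 2 gastrocnemius arrays named for actin, every call of a member under the diets there was kept. The remaining old controls there still lay above both diets for Gapdh, so leaving out those arrays cannot address it. The other differences follow whole groups, and their part in the results was not tested.

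In young controls all 9 genes were higher in heart than in neocortex and in gastrocnemius than in neocortex, and 7 of 9 were higher in heart than in gastrocnemius (limma over 60 arrays and 15035 genes). Over all genes, 68.4%, 70.3% and 51.1% differed in either direction in these 3 contrasts, and 34.9%, 34.7% and 29.3% were higher in the first-named tissue. The number of members that differed is therefore to be read against a large background. The contrast was steepest for Idh2, at 14.67 ± 0.291 in heart, 12.66 ± 0.569 in gastrocnemius and 9.42 ± 0.0845 in neocortex (mean ± SD). Heart exceeded neocortex by 5.25 ± 0.134 for Idh2, 3.52 ± 0.2 for Ogdh, 2.68 ± 0.111 for Cs and 2.59 ± 0.0948 for Fh1, and by 1.69 ± 0.128 to 1.96 ± 0.088 for Mdh2, Suclg1, Sucla2 and Idh3a. Idh3b had the smallest contrast, 0.42 ± 0.174 (adjusted p = 0.0292). Heart exceeded gastrocnemius by 2.01 ± 0.134 for Idh2, 1.12 ± 0.2 for Ogdh and 0.68 ± 0.111 for Cs, while Idh3a and Idh3b did not pass the test there (0.12 ± 0.088 and -0.10 ± 0.174). With quantile normalization over all 60 arrays, Idh3b turned to -0.28 in heart minus neocortex and -0.08 in gastrocnemius minus neocortex, and Mdh2 to -0.16 and Sucla2 to -0.08 in heart minus gastrocnemius, none of them past the test. In heart minus gastrocnemius Cs dropped to 0.20 (adjusted p = 0.0929) and Suclg1 to 0.033 (adjusted p = 0.732), which ended both calls, and Fh1 to 0.42, still called. In heart minus neocortex Mdh2 dropped to 0.44, as small as the contrast of Idh3b under trimmed-mean scaling, Idh3a to 1.23 and Sucla2 to 1.25, and in gastrocnemius minus neocortex Mdh2 dropped to 0.60, all still called.

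With age, Idh2 and Fh1 rose in heart (old control against young control), and no member changed in gastrocnemius or neocortex. The 2 of 9 members that rose in heart are read against 7.05% of all genes that rose and 3.79% that fell. In gastrocnemius, where 0.257% of genes rose and 0.171% fell, limma called 0 members, 0 reached an unadjusted p under 0.05, and both forms of the methods' t-test called 0. In neocortex, where 1.08% rose and 0.383% fell, limma called 0 members, 1 (Idh2) reached an unadjusted p under 0.05, and both forms of the methods' t-test called 0 after adjustment and 1 at the methods' own unadjusted threshold. The median change over the 9 members was 0.08 in heart, 0.20 in gastrocnemius and 0.04 in neocortex, beside 0.03, 0.03 and 0.02 over all genes tested.

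With arrays scaled to the same trimmed mean, the called changes under the diets went both ways in heart and neocortex and were all falls in gastrocnemius, whereas scaling to a common median left no rise in heart either. Over the 6 comparisons of a diet with old controls, Idh2 and Ogdh fell in 5 each, Idh3a rose in 3 and fell in 1, Cs and Sucla2 rose in 1 each, Fh1 rose in 1 and fell in 1, and Idh3b, Suclg1 and Mdh2 were called in none. Under CR, 1 member rose and 1 fell in heart (7.94% and 14.1% of all genes), 0 rose and 2 fell in gastrocnemius (17.5% and 13.6%), and 3 rose and 1 fell in neocortex (13.1% and 17.5%). Under resveratrol, 1 rose and 3 fell in heart (7.08% and 10.5%), 0 rose and 3 fell in gastrocnemius (9.42% and 9.26%), and 1 rose and 2 fell in neocortex (12.3% and 13.9%). The median change of the members was -0.08, -0.12 and 0.14 under CR and -0.10, -0.25 and 0.08 under resveratrol in heart, gastrocnemius and neocortex, beside 0.00, 0.10 and -0.03 under CR and 0.01, 0.07 and -0.01 under resveratrol over all genes tested. The values of the compared groups did not overlap for 3, 2 and 3 members under CR in heart, gastrocnemius and neocortex. The same held for 19.0%, 18.8% and 19.8% of all genes. Under resveratrol the counts were 4, 4 and 3 (15.1%, 18.0% and 18.5%), and with age 1, 0 and 1 (9.29%, 3.67% and 3.58%). Between the diets they were 3, 1 and 1 (6.28%, 4.27% and 7.77%). Both diets were set against the same old controls, which also enter the age comparison, so the 3 sets of changes are not independent of one another.

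**Figure D1:**
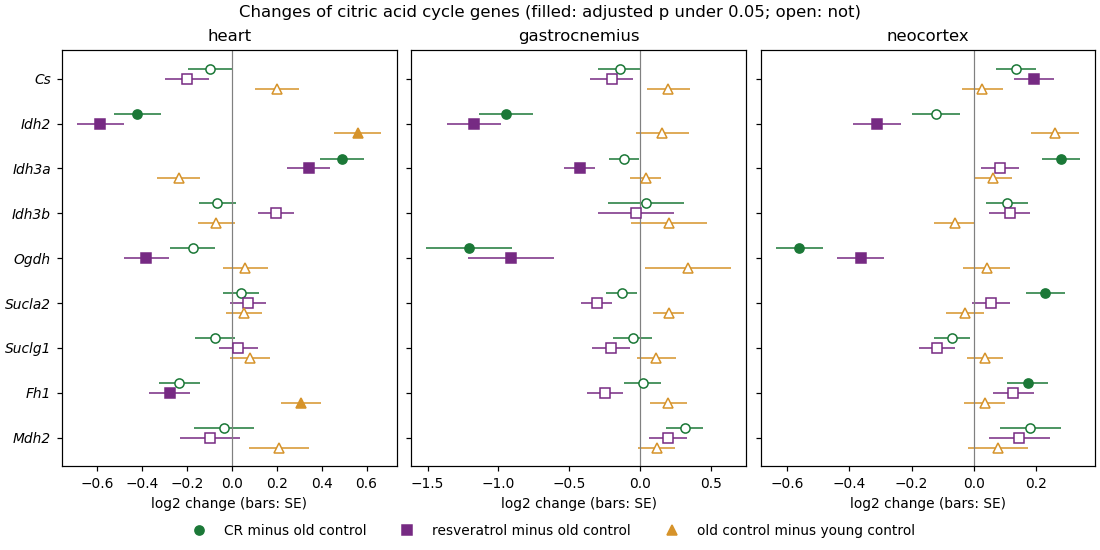
Log2 change (x axis, bars are SE) of each citric acid cycle gene (y axis) in heart, gastrocnemius and neocortex, for CR minus old control, resveratrol minus old control and old control minus young control, 5 mice a group, with filled symbols for an adjusted p under 0.05. Filled and open symbols together, Idh2 and Ogdh lie left of 0 under both diets in every tissue, and Idh3a lies right of 0 in heart and neocortex and left of it in gastrocnemius.

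The direct comparison of the diets, CR minus resveratrol, called Idh3a in neocortex and no other member. In heart, where 1.43% of all genes were higher and 2.57% lower under CR, limma called 0 members. There 1 reached an unadjusted p under 0.05 in limma (Idh3b, -0.26 ± 0.0819, adjusted p = 0.0741). Each form of the methods' t-test called 1, Idh3a, whose change was 0.15 ± 0.0973 in limma (adjusted p = 0.47). In gastrocnemius (0.257% and 0.304%), limma called 0, 2 reached an unadjusted p under 0.05, and the methods' t-test called 0. In neocortex (3.66% and 5.62%) 1 member was called. Apart from Idh3a in neocortex, a change called under one diet and not the other is therefore not shown to differ between them. The call of Idh3a was itself lost in 9 of 13 alternatives, the replicate block among them (adjusted p = 0.0604).

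The scaling of the arrays bore on the heart and gastrocnemius results. At the same trimmed mean, the median signal of all probe sets was 136.5 to 150.0 in CR hearts and 133.7 to 150.8 in CR gastrocnemius, against 105.5 to 119.4 and 96.1 to 109.8 in old controls. When each array was scaled to a common median instead, a choice made after the data were seen, the change of the median gene moved to -0.36 under CR and -0.13 under resveratrol in heart, -0.34 and -0.20 in gastrocnemius, and 0.14 and 0.22 with age in heart and gastrocnemius. The share of called genes that rose was then 5.34% under CR and 15.3% under resveratrol in heart (36.1% and 40.3% under trimmed-mean scaling), 9.05% and 12.4% in gastrocnemius (56.3% and 50.4%), and 85.4% and 94.1% with age in heart and gastrocnemius (65% and 60%); in neocortex it was 54.5% and 56.3% under CR and resveratrol (42.8% and 46.8%). For CR against resveratrol it was 3.99% in heart (35.8%) and 9.42% in gastrocnemius (45.8%). On that scale 0 members rose and 8 fell under CR in heart, 0 and 4 under resveratrol, and 0 and 7 under each diet in gastrocnemius. Over all genes, 5391 and 2593 were called on that scale under CR and resveratrol in heart, and 5213 and 3019 in gastrocnemius. Under trimmed-mean scaling these numbers were 2922 and 2330, and 4001 and 2397. Idh2 and Ogdh kept their direction and their calls, whereas the rises of Idh3a in heart dropped to 0.13 under CR (adjusted p = 0.399) and 0.20 under resveratrol (adjusted p = 0.243); relative to the median gene they were 0.49 and 0.33, values that a rescaling of arrays cannot change.

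Citrate synthase, which opens the cycle, read by its representative probe set, changed only in neocortex, where the resveratrol group was higher. Cs read 12.64, 12.67, 13.00, 12.82 and 12.66 in resveratrol and 12.62, 12.54, 12.63, 12.49 and 12.55 in old controls, a rise of 0.19 ± 0.0652 (adjusted p = 0.0302). CR neocortex read 12.63, 12.70, 12.77, 12.78 and 12.61, and young controls read 12.48, 12.59, 12.53, 12.62 and 12.47. The resveratrol values lay above every old control by a narrow margin, and replicate 3 was the highest. Without that array the rise was 0.13 (adjusted p = 0.105), and leaving out resveratrol replicate 4 or old control replicate 2, 4 or 5 also ended the call (0.17 to 0.19, adjusted p = 0.0546 to 0.0742). In heart and gastrocnemius the changes of Cs were -0.10 ± 0.0973 and -0.15 ± 0.151 under CR and -0.20 ± 0.0973 and -0.20 ± 0.151 under resveratrol, none of them called.

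The 3 probe sets of Cs disagreed, and neither of the others rose under resveratrol in neocortex. The probe set 1422577_at (tested among 27022 probe sets) fell by 0.46 ± 0.0672 under resveratrol in neocortex (adjusted p = 2.79e-05), opposite to the representative 1450667_a_at, and by 0.23 ± 0.0672 under CR. In gastrocnemius it fell by 0.96 ± 0.318 under CR and 1.04 ± 0.318 under resveratrol (adjusted p = 0.0254 and 0.0246), and in heart it fell by 0.53 ± 0.116 with age (adjusted p = 0.00312) and rose by 0.36 ± 0.116 under CR (adjusted p = 0.0293). The third probe set, 1422578_at, fell by 0.33 ± 0.11 under resveratrol in heart without overlap (adjusted p = 0.0445). In neocortex its means were 12.26 in CR and 12.30 in resveratrol against 12.42 in old controls (-0.16 ± 0.0701 and -0.12 ± 0.0701, not called), and in gastrocnemius its changes of -0.34 ± 0.145 and -0.39 ± 0.145 were not called either (adjusted p = 0.0744 and 0.0573). The direction of Cs therefore depends on the probe set read, and when its probe sets were averaged the neocortex change under resveratrol turned to -0.13 (adjusted p = 0.0764).

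Idh2, the NADP-dependent mitochondrial isocitrate dehydrogenase and a source of mitochondrial NADPH, had the largest age change of the members in heart and fell under both diets there and in gastrocnemius. In heart Idh2 read 14.75, 14.94, 14.73, 14.83 and 14.80 in CR, 14.65, 14.48, 14.67, 14.66 and 14.77 in resveratrol and 15.27, 15.11, 15.13, 15.29 and 15.35 in old controls. Young control hearts read 14.16, 14.88, 14.83, 14.79 and 14.69. Every old control lay above every mouse of the other 3 groups, and young control replicate 1 was low. The age rise was 0.56 ± 0.105 (adjusted p = 0.000985), and Idh2 fell by 0.42 ± 0.105 under CR (adjusted p = 0.00492) and by 0.59 ± 0.105 under resveratrol (adjusted p = 0.000314). The old control hearts are also the arrays with the large actin 3' to 5' difference. Without old control replicate 4 and young control replicate 1, the largest of their groups, the age change was 0.42 and the diet changes were -0.41 and -0.57, but the other 4 old controls still stood at 1.26 to 1.40, above all other hearts, so the part of this difference in the Idh2 values cannot be told apart from the group.

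In gastrocnemius the falls of Idh2 were deeper. Idh2 read 11.88, 11.76, 11.81, 11.85 and 12.04 in CR, 11.70, 11.63, 11.60, 11.58 and 11.70 in resveratrol and 12.63, 13.31, 12.76, 12.63 and 12.74 in old controls, a fall of 0.95 ± 0.19 under CR (adjusted p = 0.00093) and 1.17 ± 0.19 under resveratrol (adjusted p = 0.00025). Young controls read 12.79, 13.24, 12.81, 11.70 and 12.74, with replicate 4 as low as the diet groups, and the age change of 0.16 ± 0.19 was not called. No diet mouse reached an old control. The fall was larger in gastrocnemius than in heart: the change in heart minus that in gastrocnemius was 0.52 ± 0.19 under CR (adjusted p = 0.0407) and 0.59 ± 0.19 under resveratrol (adjusted p = 0.0248). Without gastrocnemius CR replicate 2, an array far from its group for Ogdh, the CR difference was 0.50 and no longer called (adjusted p = 0.0601).

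In neocortex Idh2 read 9.69, 9.54, 9.46, 9.66 and 9.45 in CR, 9.40, 9.51, 9.23, 9.37 and 9.33 in resveratrol and 9.81, 9.63, 9.60, 9.67 and 9.69 in old controls. Resveratrol lay below every old control and fell by 0.31 ± 0.0771 (adjusted p = 0.00413), whereas the CR change of -0.12 ± 0.0771 was not called. Young controls read 9.56, 9.36, 9.37, 9.45 and 9.37, below every old control, with an age change of 0.26 ± 0.0771 that missed the threshold (adjusted p = 0.0902). The summed signal of astrocyte markers (4 of 4 on the array, none at 0) was 6129 to 7301 in CR and 7291 to 8617 in resveratrol against 7556 to 10994 in old controls, and 5358 to 7691 in young controls. Single astrocyte markers went different ways: under CR 0 rose and 2 fell, and under resveratrol 1 rose (Aqp4, 0.46 ± 0.109) and 1 fell (Gfap, -1.17 ± 0.195). The part of astrocytes in the Idh2 values was not tested. The second probe set of Idh2, 1453601_at, gave no called change in any tissue, and averaging both probe sets removed every call of Idh2.

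**Figure D2:**
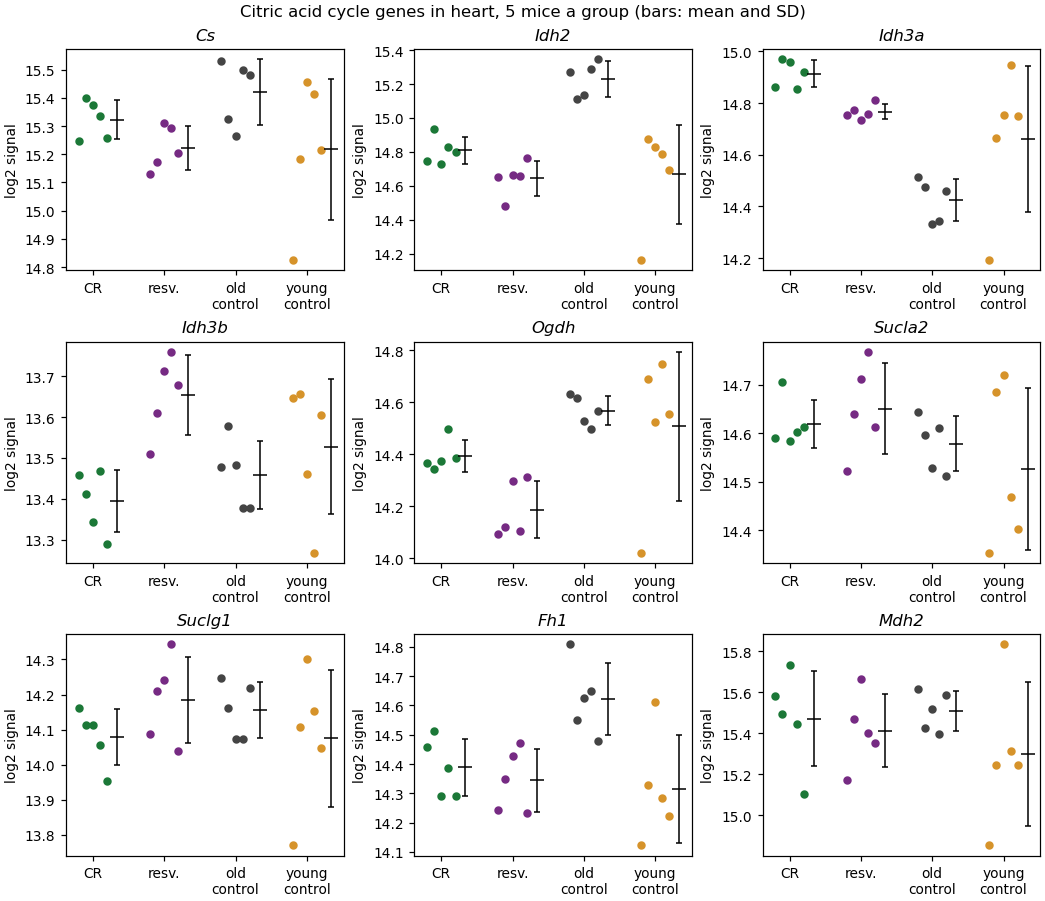
Log2 signal (y axis) of the 9 genes in each heart (points) of the CR, resveratrol, old control and young control groups (x axis), with mean and SD as bars. The old controls of Idh2 stand at 15.11 to 15.35, above all other hearts, and those of Idh3a at 14.33 to 14.51, below every diet heart.

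Idh3a encodes the catalytic subunit of the NAD-dependent isocitrate dehydrogenase, a controlled step of the cycle, and it rose under both diets in heart. Idh3a read 14.86, 14.97, 14.96, 14.86 and 14.92 in CR, 14.75, 14.77, 14.74, 14.76 and 14.81 in resveratrol and 14.51, 14.48, 14.33, 14.34 and 14.46 in old controls. Both diet groups lay wholly above the old controls, by 0.49 ± 0.0973 under CR (adjusted p = 0.000649) and 0.34 ± 0.0973 under resveratrol (adjusted p = 0.0151). Every CR heart also lay above every resveratrol heart, a difference of 0.15 ± 0.0973 that limma did not call (adjusted p = 0.47). Young control hearts spread from 14.19 to 14.95, reading 14.19, 14.67, 14.75, 14.95 and 14.75, and the age change of -0.24 ± 0.0973 was not called. Of the other 3 probe sets, 1422500_at rose by 0.63 ± 0.0955 and 0.48 ± 0.0955 and 1422501_s_at by 0.92 ± 0.122 and 0.74 ± 0.122 under CR and resveratrol, and 1447701_x_at was not called (0.39 ± 0.231 and 0.27 ± 0.231). The probe set 1422501_s_at also fell by 0.42 ± 0.122 with age in heart (adjusted p = 0.0236).

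In gastrocnemius Idh3a went the other way under resveratrol. It read 14.27, 14.83, 14.50, 14.48 and 14.27 in CR, 14.15, 14.27, 14.13, 14.08 and 14.15 in resveratrol and 14.55, 14.58, 14.74, 14.54 and 14.51 in old controls. Every resveratrol mouse lay below every old control, a fall of 0.43 ± 0.108 (adjusted p = 0.0081), while CR overlapped the old controls (-0.12 ± 0.108). Young controls read 14.57, 14.53, 14.66, 14.66 and 14.29, level with the old ones. The change in heart minus that in gastrocnemius was 0.60 ± 0.124 under CR (adjusted p = 0.000249) and 0.77 ± 0.124 under resveratrol (adjusted p = 6.97e-06). The probe sets differed here too. Under resveratrol 1422501_s_at fell by 0.34 ± 0.101 (adjusted p = 0.0202), while 1422500_at at -0.14 ± 0.111 and the dimmer 1447701_x_at at 0.75 ± 0.301 (adjusted p = 0.083) were not called. Under CR 1447701_x_at rose by 1.10 ± 0.301 (adjusted p = 0.009). Averaged over its probe sets, the change of Idh3a under resveratrol was -0.04 and no longer called (adjusted p = 0.845).

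In neocortex Idh3a rose under CR. It read 12.99, 13.16, 13.07, 13.00 and 13.02 in CR, 12.92, 12.72, 12.76, 12.92 and 12.94 in resveratrol and 12.75, 12.79, 12.90, 12.71 and 12.69 in old controls, and CR lay above every mouse of both. The rise under CR was 0.28 ± 0.0606 against old controls (adjusted p = 0.00115) and 0.20 ± 0.0606 against resveratrol (adjusted p = 0.0415), while resveratrol against old controls gave 0.08 ± 0.0606 (adjusted p = 0.337). Young controls read 12.72, 12.82, 12.71, 12.60 and 12.68, overlapping the old ones. The difference from resveratrol was not called under 9 of 13 alternatives, which included the replicate block, both t-tests, and quantile and common-median scaling (0.14 to 0.21, adjusted p = 0.0604 to 0.389), nor without CR replicate 2, 3 or 5 or resveratrol replicate 2, 3 or 4 (0.16 to 0.21, adjusted p = 0.0529 to 0.118). The probe sets 1422500_at and 1422501_s_at rose by 0.57 ± 0.0968 and 0.57 ± 0.118 under CR, and 1422500_at also rose under resveratrol, by 0.37 ± 0.0968 (adjusted p = 0.00638). The diet response in gastrocnemius lay below that in neocortex by 0.40 ± 0.124 under CR (adjusted p = 0.02) and 0.51 ± 0.124 under resveratrol (adjusted p = 0.00388).

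Idh3b, a further subunit of the same enzyme, passed the test in no comparison. Its changes ran from -0.07 to 0.20 over the 9 comparisons with old or young controls, and its largest between the diets was -0.26 ± 0.0819 in heart, where no CR heart reached a resveratrol heart (adjusted p = 0.0741). There the dimmer probe set 1418885_a_at was lower under CR by 0.70 ± 0.16 (adjusted p = 0.0145). In heart under CR the change was 0.49 ± 0.0973 for Idh3a and -0.06 ± 0.0819 for Idh3b, and the difference between these subunits was not tested.

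**Figure D3:**
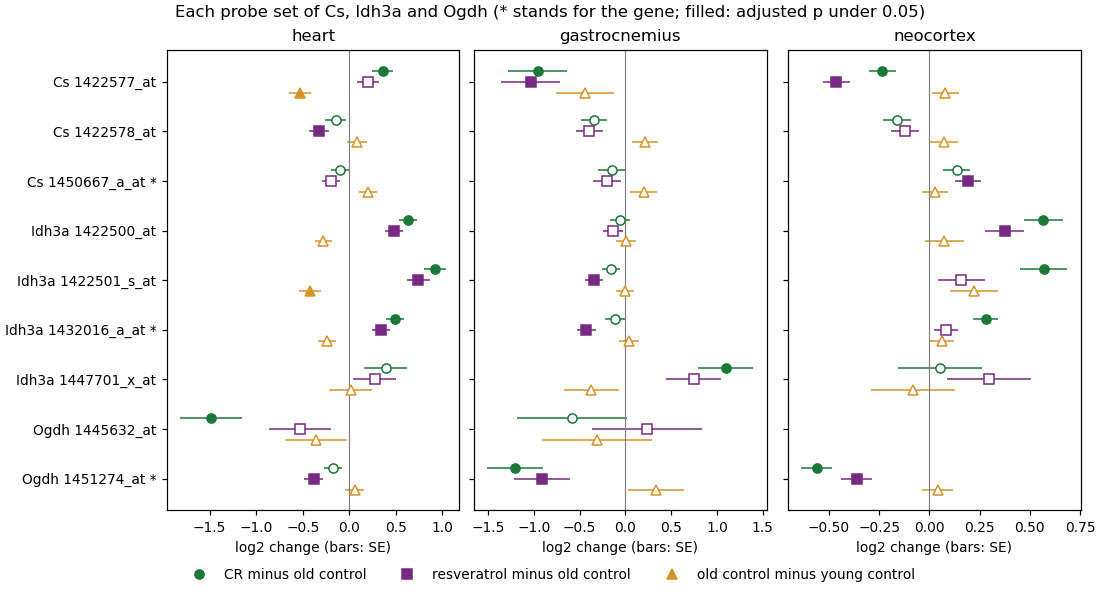
Log2 change (x axis, bars are SE) of each tested probe set of Cs, Idh3a and Ogdh (y axis; the star marks the probe set that stands for the gene) in heart, gastrocnemius and neocortex, for CR minus old control, resveratrol minus old control and old control minus young control. In heart, 3 probe sets of Idh3a lie right of 0 with filled symbols (adjusted p under 0.05) under both diets, and 1422577_at of Cs lies apart from the representative probe set in all 3 tissues.

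Ogdh, the thiamine-dependent first subunit of the 2-oxoglutarate dehydrogenase complex, was lower under both diets in every tissue, and the fall was called in 5 of the 6 comparisons. In heart Ogdh read 14.37, 14.34, 14.37, 14.50 and 14.39 in CR, 14.09, 14.12, 14.30, 14.10 and 14.31 in resveratrol and 14.63, 14.62, 14.53, 14.50 and 14.57 in old controls. Resveratrol fell by 0.38 ± 0.101 (adjusted p = 0.00895), with every heart below the old controls, while the CR change of -0.17 ± 0.101 was not called (adjusted p = 0.227) although CR and old controls separated by a narrow margin. Young control hearts read 14.02, 14.69, 14.53, 14.75 and 14.56, with replicate 1 low, and the age change was 0.06 ± 0.101.

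In gastrocnemius Ogdh read 13.07, 10.68, 12.76, 13.00 and 13.08 in CR, 12.94, 12.75, 12.56, 12.94 and 12.88 in resveratrol and 13.48, 13.87, 13.75, 13.67 and 13.85 in old controls. It fell by 1.21 ± 0.303 under CR (adjusted p = 0.00517) and by 0.91 ± 0.303 under resveratrol (adjusted p = 0.0385), with no overlap. CR replicate 2 stood far below its group. Without it the fall under CR was 0.75 ± 0.123 (adjusted p = 0.000156). The resveratrol call ended when any 1 of 9 arrays was left out, all of both groups but old control replicate 1 (-0.94 to -0.85, adjusted p = 0.0558 to 0.0868). Young controls read 13.48, 13.53, 13.39, 12.98 and 13.56, and the age change of 0.34 ± 0.303 was not called. The CR change in heart minus that in gastrocnemius was 1.03 ± 0.283 (adjusted p = 0.0059), which dropped to 0.57 ± 0.141 without the low array (adjusted p = 0.00206), and under resveratrol it was 0.53 ± 0.283 (adjusted p = 0.212).

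In neocortex the fall of Ogdh was clearest relative to its error. Ogdh read 10.39, 10.43, 10.61, 10.58 and 10.32 in CR, 10.70, 10.60, 10.74, 10.76 and 10.51 in resveratrol and 11.05, 11.04, 11.06, 10.96 and 11.01 in old controls, which lay within a narrow band. It fell by 0.56 ± 0.0758 under CR (adjusted p = 9.37e-06) and 0.36 ± 0.0758 under resveratrol (adjusted p = 0.001), with no overlap in either comparison. Young controls read 10.83, 10.98, 11.20, 11.01 and 10.89, around the old controls. The second probe set, 1445632_at, was below the filter in neocortex, fell by 1.48 ± 0.332 under CR in heart (adjusted p = 0.00209), and was not called in gastrocnemius (-0.59 ± 0.603 under CR and 0.24 ± 0.603 under resveratrol).

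**Figure D4:**
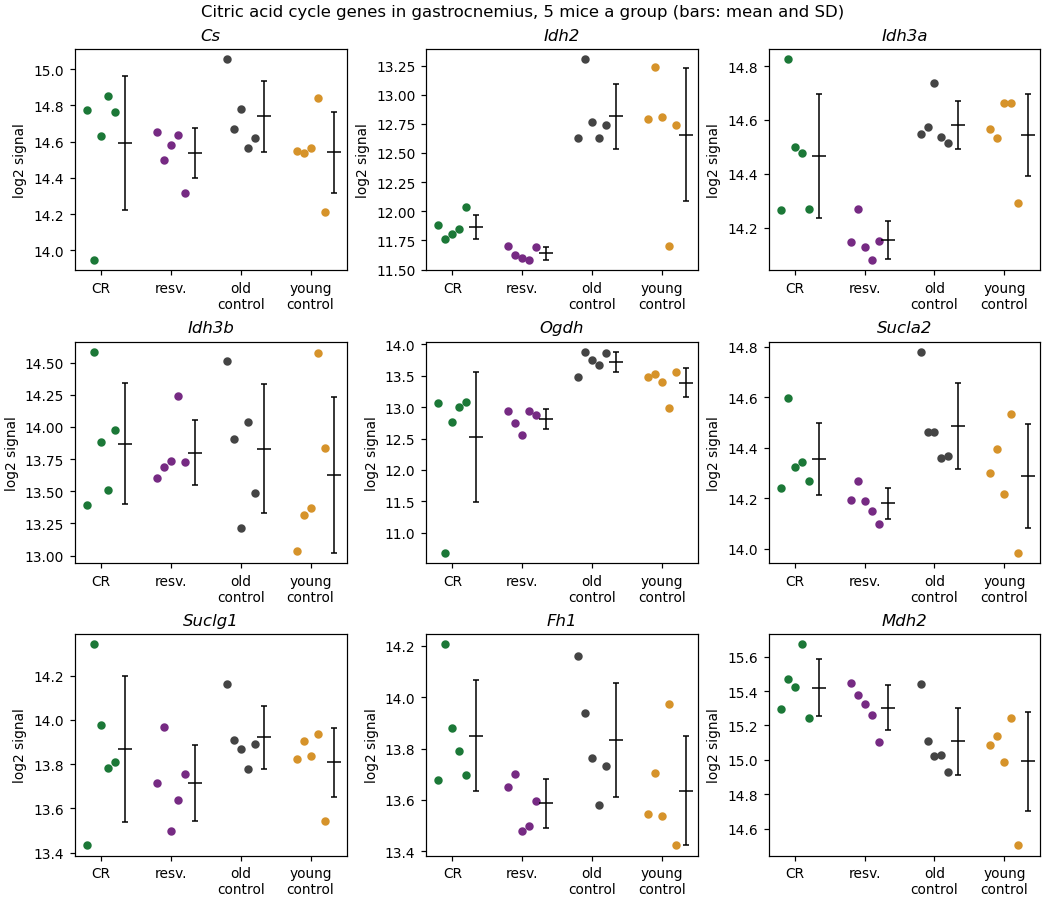
Log2 signal (y axis) of the 9 genes in each gastrocnemius (points) of the CR, resveratrol, old control and young control groups (x axis), with mean and SD as bars. Idh2 reads 11.58 to 12.04 in the diet groups and 12.63 to 13.31 in old controls, and Ogdh in CR replicate 2 stands alone at 10.68.

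The promoters of Idh2 and Ogdh are shown because these are the genes that fell most often under the diets. RefSeq (build GRCm38.p6) gave promoter sequences, 250 bases before to 50 after a start site, for 8 of the 9 genes (13 promoters, 6 of them of Ogdh), and Idh3a had no entry. Each was searched on both strands for the estrogen-related receptor motif TCAAGGTCA and its core AAGGTCA, the nuclear respiratory factor 1 motif GCGCATGCG, the ETS family motif CCGGAAG and the YY1 motif AAGATGGCG, which are known from promoters of genes for mitochondrial proteins. The receptor core, which lies inside the longer receptor motif, occurs in 4.72% of 32851 promoters of this length, the nuclear respiratory factor 1 motif in 1.75%, the ETS motif in 8.86%, the full receptor motif in 0.423% and the YY1 motif in 1.40%. Among the members they were found in Ogdh (the receptor core in 1 promoter, the nuclear respiratory factor 1 motif in 2 overlapping ones) and Idh3b (ETS). The lines give Ogdh at chr11:6291920-6292219 and chr11:6292308-6292607 (plus strand) and Idh2 at chr7:80115301-80115600 (minus strand), each 5′ to 3′ on the gene's strand, with the matched motif in capitals.
Ogdh, receptor core on the reverse strand: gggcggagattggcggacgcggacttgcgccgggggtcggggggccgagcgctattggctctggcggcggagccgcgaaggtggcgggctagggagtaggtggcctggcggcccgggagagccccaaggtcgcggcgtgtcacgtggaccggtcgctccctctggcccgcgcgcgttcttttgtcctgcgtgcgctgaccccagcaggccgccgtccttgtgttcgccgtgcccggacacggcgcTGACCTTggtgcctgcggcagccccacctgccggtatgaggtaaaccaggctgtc
Ogdh, nuclear respiratory factor 1 motif: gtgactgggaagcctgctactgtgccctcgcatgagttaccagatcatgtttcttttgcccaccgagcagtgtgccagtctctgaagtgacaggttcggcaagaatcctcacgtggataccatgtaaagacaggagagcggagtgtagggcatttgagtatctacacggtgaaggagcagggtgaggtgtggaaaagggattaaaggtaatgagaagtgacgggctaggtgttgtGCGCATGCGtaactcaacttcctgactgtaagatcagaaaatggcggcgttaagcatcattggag
Idh2, no match: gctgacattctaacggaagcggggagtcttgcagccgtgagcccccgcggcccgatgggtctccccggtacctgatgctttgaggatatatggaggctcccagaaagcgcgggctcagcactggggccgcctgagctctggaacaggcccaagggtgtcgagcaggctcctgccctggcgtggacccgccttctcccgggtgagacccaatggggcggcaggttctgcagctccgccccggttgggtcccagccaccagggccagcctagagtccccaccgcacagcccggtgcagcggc
The match in the first Ogdh promoter begins 5 bases before the start site and that in the next one 15 bases before it. Which start site the arrays' transcripts used is not known, and a match is a description of letters, not of binding.

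Succinyl-CoA ligase was measured through Suclg1, the subunit common to both forms of the enzyme, and Sucla2, the subunit of the ATP-forming version. Sucla2 rose in CR neocortex, where it read 12.88, 12.85, 12.81, 12.78 and 12.79, against 12.54, 12.55, 12.56, 12.63 and 12.68 in old controls, a rise of 0.23 ± 0.0614 (adjusted p = 0.00637) without overlap. Resveratrol neocortex read 12.66, 12.60, 12.55, 12.58 and 12.85 and young controls read 12.71, 12.74, 12.52, 12.51 and 12.62, both overlapping the old controls. In gastrocnemius the changes of -0.13 ± 0.11 under CR and -0.31 ± 0.11 under resveratrol (adjusted p = 0.0557) were not called, but the diet changes in gastrocnemius lay below those in neocortex by 0.36 ± 0.115 under CR and 0.36 ± 0.115 under resveratrol (adjusted p = 0.0213 and 0.0309). The change in heart exceeded that in gastrocnemius by 0.38 ± 0.115 under resveratrol (adjusted p = 0.0155). The other 2 probe sets of Sucla2 did not pass the filter in any tissue. Suclg1 was called nowhere, with changes from -0.21 to 0.11 over the 9 comparisons with old or young controls and from -0.11 to 0.15 between the diets.

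Fh1, fumarate hydratase, rose with age and fell under resveratrol in heart, and rose under CR in neocortex. In heart it read 14.46, 14.51, 14.29, 14.39 and 14.29 in CR, 14.24, 14.35, 14.43, 14.47 and 14.23 in resveratrol and 14.81, 14.55, 14.62, 14.65 and 14.48 in old controls. Young control hearts read 14.12, 14.33, 14.61, 14.29 and 14.22. It rose with age by 0.31 ± 0.0902 (adjusted p = 0.0278) although young control replicate 3 lay inside the old range, and fell by 0.28 ± 0.0902 under resveratrol (adjusted p = 0.033) without overlap, while the CR change of -0.23 ± 0.0902 missed the threshold (adjusted p = 0.064). Leaving out any of 5 arrays ended the age call (0.26 to 0.31, adjusted p = 0.0506 to 0.0855) and any of 6 ended the resveratrol call (-0.28 to -0.23, adjusted p = 0.0560 to 0.104), old control replicates 1, 3 and 4 in both. Without old control replicate 4 and young control replicate 1 together, the age change was 0.25 and not called (adjusted p = 0.0862).

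In neocortex Fh1 read 11.83, 11.94, 12.03, 11.95 and 11.90 in CR, 11.94, 11.82, 11.87, 11.76 and 12.03 in resveratrol and 11.70, 11.68, 11.92, 11.76 and 11.73 in old controls. Here it rose by 0.17 ± 0.0659 under CR, just past the threshold (adjusted p = 0.0487) and with overlap. Leaving out any of 8 arrays of these groups, all but old control replicate 3 and CR replicate 1, ended that call (0.15 to 0.18, adjusted p = 0.0631 to 0.120). Young controls read 11.80, 11.83, 11.68, 11.60 and 11.70. The CR change in heart lay below that in neocortex by 0.41 ± 0.134 (adjusted p = 0.0469; with quantile normalization over 60 arrays -0.32, adjusted p = 0.0620). Fh1 in gastrocnemius was not called (changes of 0.02 ± 0.127, -0.25 ± 0.127 and 0.20 ± 0.127 under CR, resveratrol and age).

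Mdh2, the mitochondrial malate dehydrogenase, which also serves the malate-aspartate shuttle, was called in no comparison. Its changes ran from -0.10 to 0.31, the highest being CR in gastrocnemius (adjusted p = 0.075), where the other probe set, 1416478_a_at, gave -0.04 ± 0.123.

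**Figure D5:**
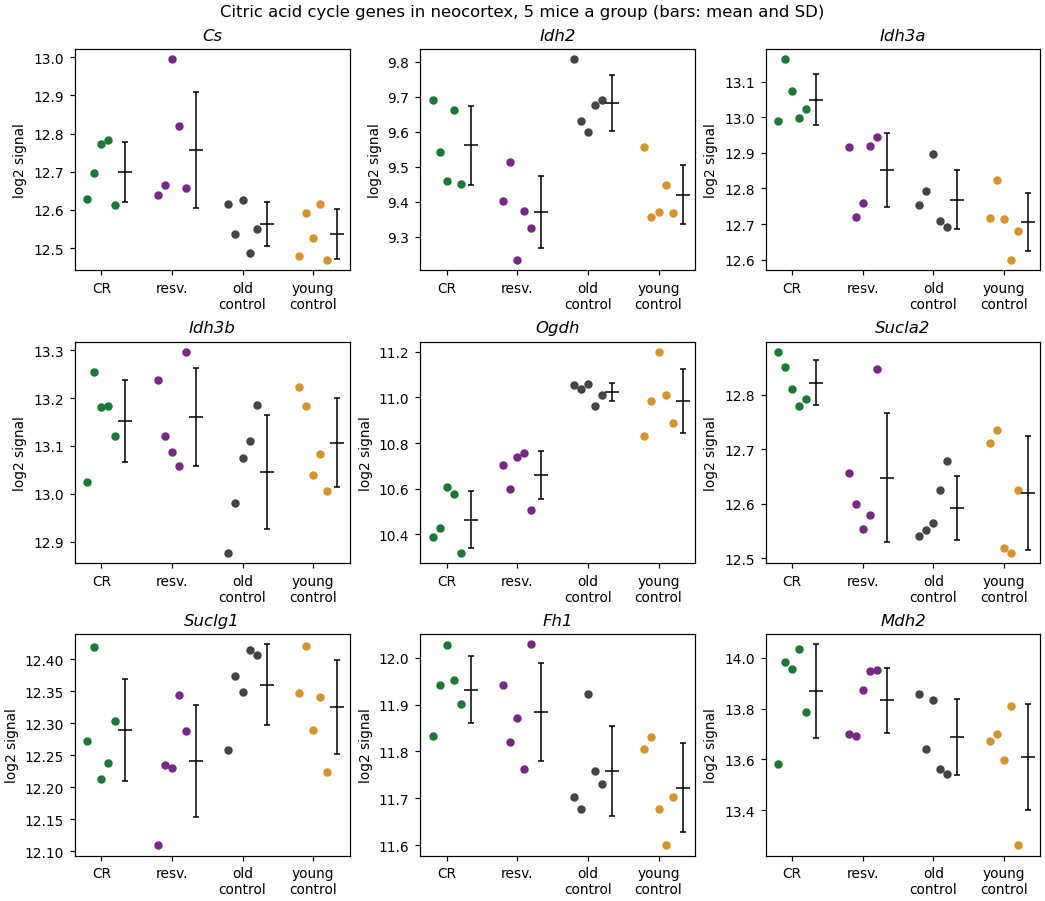
Log2 signal (y axis) of the 9 genes in each neocortex (points) of the CR, resveratrol, old control and young control groups (x axis), with mean and SD as bars. Ogdh reads 10.32 to 10.61 in CR and 10.51 to 10.76 in resveratrol, below 10.96 to 11.06 in old controls, and CR lies above old controls for Idh3a and Sucla2.

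Tests of the difference between tissues called 3 members for CR and 3 for resveratrol between heart and gastrocnemius (20.3% and 16.4% of all genes), 1 and 0 between heart and neocortex (8.03% and 4.81%), and 3 and 3 between gastrocnemius and neocortex (17.3% and 10.5%). For resveratrol between heart and neocortex, limma called 0 and 3 members reached an unadjusted p under 0.05. For age limma called 0 in each pair, beside 5.27%, 3.25% and 0.299% of all genes, with 2, 2 and 0 members at an unadjusted p under 0.05. Without gastrocnemius CR replicate 2, which shares its estimate of spread with the other contrasts, 2 members were called for CR between heart and gastrocnemius, and for resveratrol 4 between heart and gastrocnemius, 1 between heart and neocortex and 6 between gastrocnemius and neocortex. No other tool was run on these differences.

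Of 8 other cycle genes tested in each tissue, 2 rose and 0 fell under CR in heart, 0 and 2 in gastrocnemius, and 4 and 3 in neocortex, where 7.94% and 14.1%, 17.5% and 13.6%, and 13.1% and 17.5% of all genes rose and fell. Under resveratrol 2 rose and 0 fell in heart, 0 and 4 in gastrocnemius, and 2 and 1 in neocortex (all genes, 7.08% and 10.5%, 9.42% and 9.26%, and 12.3% and 13.9%). Their median change was 0.16, -0.12 and 0.23 under CR and 0.00, -0.31 and 0.06 under resveratrol in heart, gastrocnemius and neocortex. Sdhd, a membrane anchor of succinate dehydrogenase, which also serves as complex II of the respiratory chain, rose in heart by 0.70 ± 0.0965 under CR and 0.67 ± 0.0965 under resveratrol and fell by 0.30 ± 0.0965 with age. Dld, the dehydrogenase subunit common to the 2-oxo acid complexes, also rose in heart (0.29 ± 0.103 and 0.41 ± 0.103), and fell by 0.48 ± 0.111 under resveratrol in gastrocnemius. There Suclg2, the GTP-linked partner of Suclg1, fell by 0.46 ± 0.121 under CR and 0.62 ± 0.121 under resveratrol, Sdha, the catalytic subunit of succinate dehydrogenase, by 0.41 ± 0.135 and 0.47 ± 0.135, and Sdhd by 0.41 ± 0.115 under resveratrol. In CR neocortex Sdhb, the iron-sulfur subunit, rose by 0.36 ± 0.0596 and Idh3g, the partner of Idh3a, by 0.32 ± 0.0699, whereas Dlst, the second subunit of the complex of Ogdh, fell by 0.32 ± 0.0887 and Sdhc by 0.35 ± 0.105. Dlst fell by 0.30 ± 0.0887 under resveratrol as well, while Sdha and Sdhb rose by 0.19 ± 0.0641 and 0.16 ± 0.0596. With age Sdhd in heart was the only call among the 8. Between the diets Sdhb in neocortex was the only call (CR above resveratrol by 0.20 ± 0.0596).

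Of 16 genes that feed or drain the cycle, 0 rose and 4 fell under CR in gastrocnemius (17.5% and 13.6% of all genes), and 0 and 7 under resveratrol (9.42% and 9.26%), with median changes of -0.10 and -0.34. Got1, the cytosolic aspartate aminotransferase of the malate-aspartate shuttle, fell by 1.39 ± 0.223 and 1.46 ± 0.223, and Pdhx, which binds the E3 subunit into the pyruvate dehydrogenase complex, by 0.64 ± 0.0994 and 0.85 ± 0.0994. Glud1 (glutamate dehydrogenase) and Pdha1 (pyruvate dehydrogenase E1 alpha) fell by 0.61 ± 0.103 and 0.30 ± 0.0837 under CR, and the lipogenic enzymes Acly and Me1 by 1.81 ± 0.414 and 1.10 ± 0.261 under resveratrol. In heart 2 rose and 1 fell under CR beside 7.94% and 14.1% of all genes (Got1 0.37 ± 0.128, Pdhb 0.27 ± 0.0873, Me3 -0.44 ± 0.128), and 2 rose and 3 fell under resveratrol beside 7.08% and 10.5%, among them Idh1 at 0.43 ± 0.131, Pcx (pyruvate carboxylase) at -0.85 ± 0.26, Me3 at -0.60 ± 0.128 and Got2 at -0.32 ± 0.0914. With age 0 rose and 2 fell in heart, beside 7.05% and 3.79% (Acly -1.38 ± 0.396 and Me1 -0.81 ± 0.254). In neocortex 5 rose and 3 fell under CR (13.1% and 17.5% of all genes), led by Me1 at -0.51 ± 0.0974, Pdhb at 0.42 ± 0.0675, Mdh1 at 0.35 ± 0.131 and the pyruvate carrier Mpc1 at 0.30 ± 0.0754. Under resveratrol 4 rose and 2 fell there (12.3% and 13.9%), led by Me1 at -0.47 ± 0.0974, Mdh1 at 0.40 ± 0.131 and the cytosolic aconitase Aco1 at 0.39 ± 0.1. Between the diets 3 were higher and 1 lower under CR in neocortex (3.66% and 5.62%), with Aco1 at -0.38 ± 0.1 and Me3 at 0.31 ± 0.0725.

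Of 7 regulators of mitochondrial genes, Esrra, the estrogen-related receptor alpha, rose in gastrocnemius by 1.16 ± 0.24 under CR and 1.14 ± 0.24 under resveratrol, and Gabpa, an ETS family factor, fell by 0.57 ± 0.132 and 0.51 ± 0.132. Ppargc1a, the coactivator PGC-1alpha, fell by 1.26 ± 0.214 with age in gastrocnemius, rose by 0.69 ± 0.214 under CR, and was higher under CR than under resveratrol by 1.25 ± 0.214; it rose by 0.38 ± 0.121 under CR in neocortex. Tfam, the mitochondrial transcription factor A, fell by 0.48 ± 0.102 under CR in heart and was lower there than under resveratrol by 0.50 ± 0.102, and Nrf1 fell by 0.47 ± 0.172 under resveratrol in neocortex. No other regulator was called in any comparison.

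Markers of other cell types also changed in the diet groups. In heart the summed signal of 5 macrophage markers was 15575 to 18793 in CR and 13192 to 20295 in resveratrol against 9455 to 13115 in old controls, and that of 5 atrial markers was 147529 to 188843 and 166403 to 209206 against 72636 to 158136. In gastrocnemius the macrophage sum was 5392 to 10575 and 5639 to 12295 against 4014 to 5254, and the sum of 3 endothelial markers was 618 to 1365 and 754 to 1309 against 1392 to 2665. In heart 4 of 5 macrophage markers rose under each diet and 3 and 5 of 5 atrial markers under CR and resveratrol, and in gastrocnemius 3 of 5 macrophage markers rose and 2 of 3 endothelial markers fell under each. In heart 2 and 1 of 4 adipocyte markers rose under CR and resveratrol, with sums of 45286 to 56281 and 41524 to 66430 against 28878 to 41678 in old controls, and 1 and 2 of 4 fibroblast markers rose, with sums of 32301 to 37547 and 27004 to 36961 against 13909 to 28865. The red blood cell marker that passed the filter in heart, Alas2, rose under both diets, and the sum of the 2 on the array was 5298 to 22183 in CR and 3226 to 7897 in resveratrol against 1702 to 3006 in old controls. In neocortex, where resveratrol gave the calls of Cs, Idh2 and Ogdh, 3 of 4 macrophage markers tested rose and 3 of 6 neuron markers fell under resveratrol, and 1 of 4 and 1 of 6 fell under CR. The macrophage sum there was 6282 to 7774 in CR and 8051 to 11928 in resveratrol against 7072 to 8238 in old controls, and the neuron sum was 64639 to 78489 and 61121 to 73168 against 65033 to 81030. The sum of 6 cardiomyocyte markers in heart overlapped (377939 to 431274 in CR and 328944 to 375370 in resveratrol against 340291 to 437462 in old controls). No marker of a list named so far was at 0 in the tissue it is given for. In gastrocnemius that sum was 23290 to 39942 in CR and 10004 to 20983 in resveratrol against 21856 to 38334 in old controls. Of 4 tested there, 0 fell under CR and 2 under resveratrol. The atrial sum there was 6581 to 23797 and 7566 to 10109 against 3191 to 4095. The adipocyte sum there was 27114 to 103511 in CR and 24803 to 42104 in resveratrol against 26876 to 41079 in old controls. Of 3 adipocyte markers tested there, 1 rose under CR and 0 under resveratrol. Of 6 slow fibre markers there 1 fell under each diet, and of 6 fast fibre markers 0 were called. The part of other cell types and of fibre types in the members' changes was not tested.

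The members did not all move together. Over the 20 arrays of a tissue, the 36 pairs of members correlated with a median Pearson r of 0.32 in heart, 0.24 in gastrocnemius and 0.07 in neocortex, from -0.51 (Cs and Idh3b) to 0.80 (Cs and Idh2) in heart, -0.59 (Idh2 and Mdh2) to 0.88 (Sucla2 and Fh1) in gastrocnemius and -0.78 (Ogdh and Sucla2) to 0.79 (Idh3a and Fh1) in neocortex. The points share groups and array quality, so these values are descriptions. The genes most like the members' mean were, in heart, Ckmt2 (mitochondrial creatine kinase), Gpr153, the complex I subunits Ndufv2 and Ndufa6, and Lpl (lipoprotein lipase), with r of 0.84 to 0.88. In gastrocnemius they were Phyh, Etfdh, Acadm, Pdha1 and Acadl, with r of 0.88 to 0.91, of which Etfdh, Acadm and Acadl act in fatty acid oxidation. In neocortex they were Ccdc82, Nap1l2, Tatdn1, Fbxo7 and Pttg1, with r of 0.78 to 0.81.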

How the data were processed

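The authors hybridised labelled cRNA from total RNA of each mouse's tissue to 1 array. The deposited values are linear signal intensities per probe set, made in GCOS 1.2 per the submitters' processing notes and scaled by the authors so that each array's mean, with 2% of probe sets trimmed at either end, was 500. Background settings and detection calls were not used here, and 5 arrays per group limit the precision. Signals were floored at 1 and log2 transformed. Of 45101 probe sets, 34945 carried 1 gene symbol in the platform annotation, and the brightest probe set on average stood for each gene. Genes at or above the 40th percentile of mean signal in a tissue were fitted with limma 3.58.1 (R 4.3.3; lmFit, eBayes with trend), 4 groups in 1 fit, two-sided, with Benjamini-Hochberg adjustment. Differences between tissues came from 1 model of 60 arrays, with no term for mouse since the labels do not link tissues of a mouse. Scripts were tested on simulated data. Promoters were searched with Python 3.11.15. All 9 genes are named in every tissue, with values per mouse where a gene passed a test, and up to 4 called genes per comparison of the other lists. The members and lists were chosen with earlier results of these data known. Alternatives were other scalings, filters, probe set rules and tests, leaving out arrays, and a replicate block; scaling to a common median, leaving out the arrays of largest actin difference, and leaving gastrocnemius CR replicate 2 out of the tissue model were chosen after seeing the data.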

Additional observations from a re-analysis of the deposited data

Results flagged for a closer look

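Of 108 groups of 5 mice, 11 held a sample far from the other 4 (Dixon's ratio above 0.71), against 5.4 by chance. In gastrocnemius, CR replicate 2 was low for Ogdh (10.68, the others 12.76 to 13.08) and Cs (13.95, the others 14.63 to 14.85) and high for Sucla2 (14.60, the others 14.24 to 14.34). The resveratrol replicate 4 was high for Idh3b there (14.24, the others 13.61 to 13.73). Among old controls of that tissue, Idh2 was high in replicate 2 (13.31, the others 12.63 to 12.76), Idh3a in replicate 3 (14.74, the others 14.51 to 14.58) and Sucla2 in replicate 1 (14.78, the others 14.36 to 14.46), and among young controls Suclg1 was low in replicate 5 (13.54, the others 13.82 to 13.94). In heart, Ogdh was high in CR replicate 4 (14.50, the others 14.34 to 14.39), Sucla2 in CR replicate 2 (14.71, the others 14.58 to 14.61), and Idh2 was low in young control replicate 1 (14.16, the others 14.69 to 14.88).

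Diet changes differed between tissues for 5 genes by the test of the difference itself. The CR change in heart minus that in gastrocnemius was 0.52 for Idh2, 0.60 for Idh3a and 1.03 for Ogdh (0.50, no longer called, for Idh2 and 0.57 for Ogdh without gastrocnemius CR replicate 2), and the resveratrol change differed by 0.59 for Idh2, 0.77 for Idh3a and 0.38 for Sucla2. The CR change of Fh1 in heart minus that in neocortex was -0.41. The change in gastrocnemius minus that in neocortex was -0.83 for Idh2, -0.40 for Idh3a and -0.36 for Sucla2 under CR, and -0.86, -0.51 and -0.36 for the same genes under resveratrol.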

How the results depend on the processing

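Over 59 called changes and differences and 585 alternative values, 490 kept direction and call, 89 lost the call and 6 reversed. Of the 59, 31 never lost the call. Age and diet calls within a tissue made up 21 of the 59, each with 13 or 14 alternatives and 10 arrays left out in turn. Among these only Idh3a under CR in neocortex never lost its call. The other 38 were contrasts between tissues, each with 2 alternatives and at most 1 array left out. Array number and scaling limit these results, and the causes of the losses were not tested. Under common-median scaling 8 members were called for CR in heart (2 as reported), 2 for CR against resveratrol in heart (0), and 7 for CR (2) and 7 for resveratrol (3) in gastrocnemius. The number of all genes called grew as well in these comparisons, from 2922 to 5391, 531 to 1907, 4001 to 5213 and 2397 to 3019. Quantile normalization called 4 for CR in gastrocnemius and 2 for CR in neocortex (4 as reported). Over all genes it called 3470 and 3858 in these comparisons (4001 and 3999 as reported). No count over all genes is given for the alternatives that follow, so their member counts cannot be set against a background. When the probe sets of a gene were averaged, dim ones included, no call of Idh2 or Ogdh was kept; the counts were 1 for age in heart (2), 1 for resveratrol in gastrocnemius, and 2 for CR and 0 for resveratrol in neocortex (3), and Sucla2 under CR and Cs under resveratrol in neocortex reversed to -0.25 and -0.13. For age in heart, the methods' t-test on log2 signals called 0 (Idh2 adjusted p = 0.0602), and that on unlogged signals, eBayes without trend and a fit of 2 groups called 1. For CR in heart a fit of 2 groups called 4, and for CR in gastrocnemius the t-test on log2 signals called 1. For CR against resveratrol in heart, both t-tests, a fit of 2 groups and leaving out the arrays of largest actin difference called 1. Idh3a in neocortex under CR against resveratrol was the only call there (1), and the count was 0 with quantile normalization, common-median scaling, no filter, averaged probe sets, both t-tests, no trend, a fit of 2 groups and the replicate block. Quantile normalization over 60 arrays gave 1 difference between heart and neocortex for age (0), 0 for CR (1) and 1 for resveratrol (0), 5 between gastrocnemius and neocortex for resveratrol (3), and 4 in level between heart and gastrocnemius (7), where Mdh2 reversed to -0.16 and Sucla2 to -0.081 and Cs (0.20) and Suclg1 (0.033) lost their calls; Idh3b reversed to -0.28 in heart minus neocortex and -0.081 in gastrocnemius minus neocortex. At the methods' own unadjusted threshold, the t-test on log2 signals passed 1, 3, 5 and 3 members for age, CR, resveratrol and CR against resveratrol in heart, 0, 1, 4 and 1 in gastrocnemius, and 1, 3, 2 and 1 in neocortex; after Benjamini-Hochberg adjustment it passed 0, 3, 4 and 1, then 0, 1, 4 and 0, then 0, 4, 2 and 0.

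Leaving out 1 array gave 1 to 3 calls for age in heart (3 without young control replicate 1; 1 without young control replicate 2 or 5 or old control replicate 1, 3 or 4), 2 to 2 for CR, 3 to 4 for resveratrol and 0 to 0 between the diets. In gastrocnemius it gave 0 to 0 for age, 2 to 3 for CR, 2 to 3 for resveratrol and 0 to 0 between the diets. In neocortex it gave 0 to 0 for age, 3 to 5 for CR, 2 to 3 for resveratrol and 0 to 2 between the diets (2 without resveratrol replicate 5). Leaving gastrocnemius CR replicate 2, chosen after seeing the data, out of the model of 60 arrays gave, for resveratrol, 1 difference between heart and neocortex (0) and 6 between gastrocnemius and neocortex (3). No share of all genes is given for that fit.

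With the replicate number as a block, the call of Fh1 under CR in neocortex (0.17, adjusted p = 0.0618) and that of Idh3a between the diets (0.20, adjusted p = 0.0604) were lost, and no other. The labels do not say what a replicate number stands for. Deviations of same-numbered samples within a tissue correlated at -0.20 to 0.17. They exceeded 0.1 in 0 of 30 pairs in heart, 2 of 30 in gastrocnemius and 3 of 30 in neocortex.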
